A study of Homo sapiens with 6 samples.

Results

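Peroxisome biogenesis genes and genes of peroxisomal enzymes were followed in K562 cells given calactin. The set held 31 named genes: 12 peroxins (the PEX genes) and 19 genes of transporters, fatty acid oxidation, ether lipid synthesis, membrane proteins and a matrix protease. Probe sets were found by gene symbol in the platform annotation, and each gene was read from its brightest probe set, judged by the mean of all 6 arrays. A probe set is a group of short DNA probes on the array that read the same transcript. Of the 31 genes, 29 had a probe set carrying their symbol alone, out of 19775 such genes on the array. PEX13 and SCP2 had none and were not analysed here. The mean signal that picked each probe set ignores the treatment, but the gene list was drawn up with results of this comparison known, so the counts over the list describe it and support nothing further.

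K562 is an established line of human chronic myeloid leukaemia cells with erythroid traits. Calactin is a cardenolide, a plant steroid of the class that inhibits the sodium and potassium pump of the cell membrane. One group held 3 arrays of K562 cells given calactin, labelled as 0.15 mM for 12 h, and the other held 3 arrays of untreated K562 cells of the same time. The replicates are 1 cell line, so they carry no spread between donors, and in a bulk culture less transcript per cell and fewer cells holding it cannot be told apart. The embryonic globin genes HBZ and HBE1, which K562 is known to express, gave intensities of 9569 to 14620 in the 6 arrays. The 6 hepatocyte markers, fixed because liver is rich in peroxisomes, stayed at or below 60.3, under the median gene signal of 71.4. Of 8 measured K562 markers, all above the median gene signal, GATA1, LMO2 and TFRC were called lower (37.5%) and TAL1 higher (12.5%) with calactin. Among all genes above that signal, 29.3% were called lower and 9.1% higher. Fibroblast and lymphocyte lists held 1 called marker each, 20% of the 5 measured, beside 16.5% of all genes called lower. These were COL1A2 (lower by 0.80, ± 0.17) and CD3D (lower by 0.45, ± 0.09), on the log2 scale. The summed signal of 5 fibroblast markers was 1054 to 1309.9 untreated and 981 to 1227 with calactin. Most of it was COL1A1, at 625 to 957 untreated and 706 to 915 with calactin. The sum of 5 lymphocyte markers was 2284 to 2677 untreated and 1789 to 1956 with calactin. Most of that was CD3D, at 2157 to 2550 untreated and 1634 to 1809 with calactin. The sum of the hepatocyte markers was 161 to 204 untreated and 175 to 232 with calactin. No detection calls were used, so a signal above 0 does not show that a marker was expressed. The part of these markers in the results below was not tested.

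Peroxisomes are small organelles bounded by a single membrane that shorten very long and branched fatty acids, begin the synthesis of ether lipids and break down hydrogen peroxide. Their enzymes are made in the cytosol and imported folded: the receptors PEX5 and PEX7 bind targeting signals, PEX13 and PEX14 dock them at the membrane, RING ubiquitin ligases mark the receptor and an ATPase complex pulls it out again. PEX3, PEX16 and PEX19 place proteins into the peroxisomal membrane, and their loss leaves cells without peroxisomes. Inherited defects of peroxins cause Zellweger spectrum disorders, and peroxisomes, like other organelles, are cleared as erythroid cells mature into red cells.

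Of the 29 measured genes, 15 were called lower with calactin and 0 higher on the deposited scale, which was 51.7% lower against 16.5% of all genes called lower and 4.93% called higher. A call here is an adjusted p under 0.05 in limma's moderated test over all 19775 genes, run on log2(intensity + 16), and every difference below is calactin minus untreated on that scale, with its standard error. Among the 25 members above the median gene signal, 14 were called lower (56%) and 0 higher, where 29.3% and 9.1% of all genes above that signal were. The median difference of the members was -0.34, and that of all genes was -0.06. The 11 measured peroxins had 8 calls and a median of -0.44. The 18 other genes had 7 calls and a median of -0.23. In 19 members every calactin array lay below every untreated array, as it did in 24.4% of all genes, and in 2 (PEX19 and ACOX3) every calactin array lay above, as in 10.3% of all genes. Among members above the median signal these counts were 18 and 1, where 39.2% and 14.9% of genes above that signal had such arrays. The directions of the list depend on the scale: the median was negative on the deposited values and under quantile normalization, median centring and hybridisation spike scaling, and 0.19 when arrays were scaled to poly-A control spikes.

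**Figure D1:**
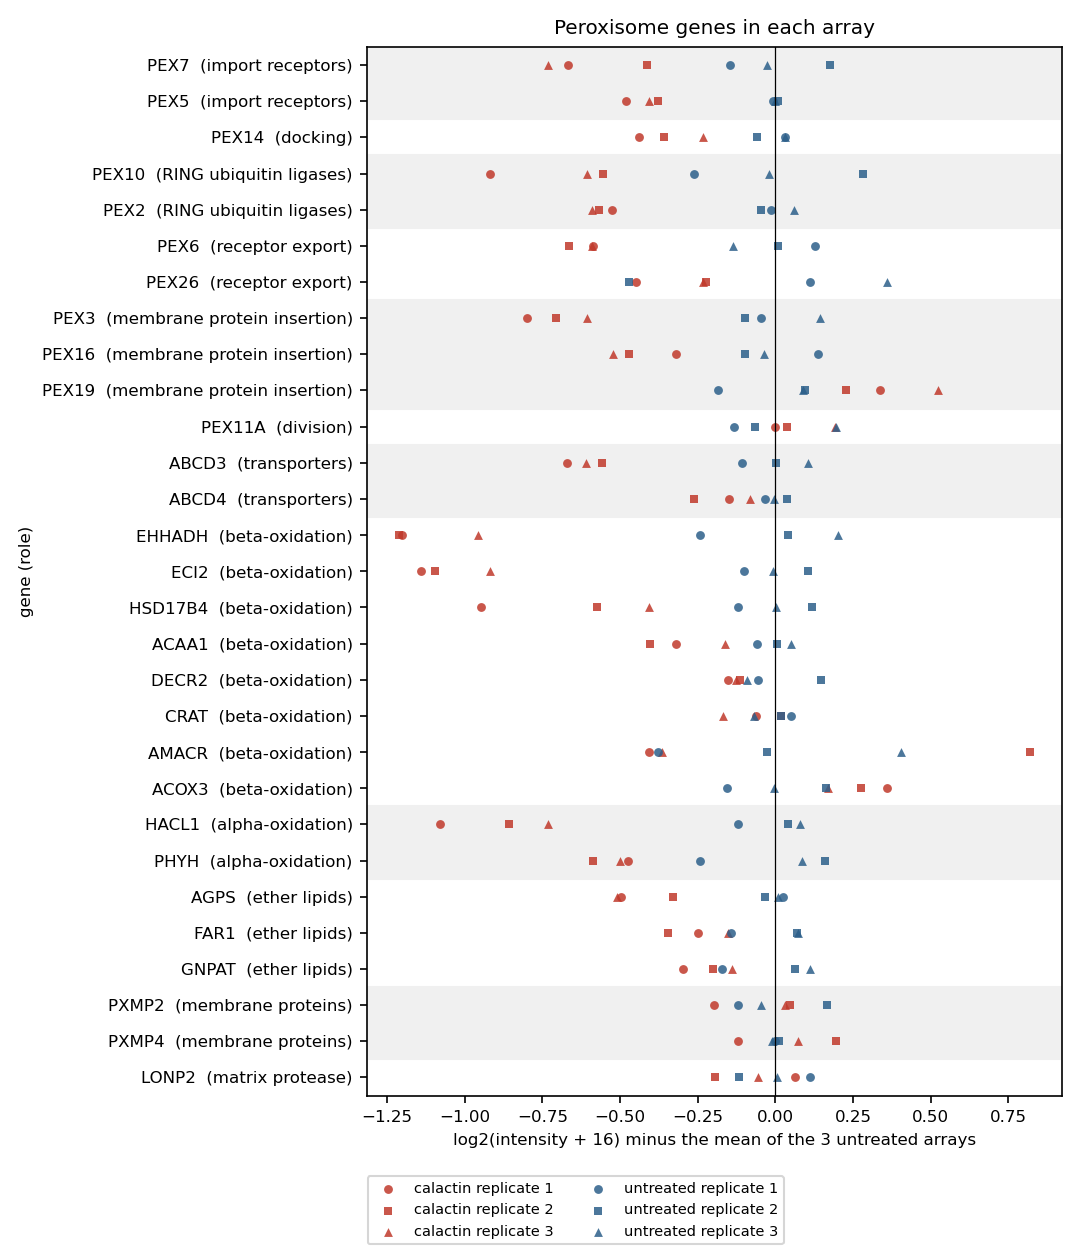
Each row is a peroxisome gene, grouped by role, and each point is an array: log2(intensity + 16) minus the mean of the 3 untreated arrays of that gene, for the deposited values. Red points (calactin) lie left of all blue points (untreated) in 19 rows and right of them in 2, while poly-A spike scaling moves the median of the list to 0.19.

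The promoters of 4 members are shown because these genes mark the range of the data. ECI2 and HACL1 were called lower under each of the 20 alternative settings tried. On the deposited scale, PEX6 was lower on both of its probe sets and PEX19 lay the other way. Each is the RefSeq window of 300 bases, 250 before and 50 after the annotated start, on GRCh38.p14 and on the gene's own strand, which is the minus strand in all 4. Capitals mark matches, on either strand, to the motif GGGCGG, known as the GC box and bound by Sp factors. Those of the CCAAT box, whose letters are its name and which NF-Y binds, are capitals too. The same holds for CCGGAAG, the core bound by ETS factors. No matches of these motifs overlapped each other in the windows shown. The windows are chr6:4135526-4135825 for ECI2, chr3:15601520-15601819 for HACL1, chr6:42979132-42979431 for PEX6 and chr1:160285084-160285383 for PEX19.
ECI2: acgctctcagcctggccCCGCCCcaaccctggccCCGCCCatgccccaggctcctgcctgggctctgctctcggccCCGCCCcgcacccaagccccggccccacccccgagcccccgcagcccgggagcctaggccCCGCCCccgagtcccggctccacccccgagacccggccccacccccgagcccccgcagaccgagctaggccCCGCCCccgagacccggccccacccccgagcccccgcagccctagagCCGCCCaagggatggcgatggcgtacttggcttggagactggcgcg
HACL1: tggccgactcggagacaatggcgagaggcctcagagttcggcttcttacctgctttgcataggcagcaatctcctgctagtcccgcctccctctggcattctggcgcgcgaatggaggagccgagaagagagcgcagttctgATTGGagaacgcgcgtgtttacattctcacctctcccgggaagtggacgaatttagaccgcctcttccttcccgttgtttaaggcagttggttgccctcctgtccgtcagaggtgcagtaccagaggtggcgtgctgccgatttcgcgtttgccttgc
PEX6: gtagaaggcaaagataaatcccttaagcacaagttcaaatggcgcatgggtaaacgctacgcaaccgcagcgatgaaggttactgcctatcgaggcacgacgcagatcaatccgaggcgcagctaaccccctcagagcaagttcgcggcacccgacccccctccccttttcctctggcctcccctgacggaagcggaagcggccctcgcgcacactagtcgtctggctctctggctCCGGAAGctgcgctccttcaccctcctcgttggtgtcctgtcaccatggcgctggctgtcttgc
PEX19: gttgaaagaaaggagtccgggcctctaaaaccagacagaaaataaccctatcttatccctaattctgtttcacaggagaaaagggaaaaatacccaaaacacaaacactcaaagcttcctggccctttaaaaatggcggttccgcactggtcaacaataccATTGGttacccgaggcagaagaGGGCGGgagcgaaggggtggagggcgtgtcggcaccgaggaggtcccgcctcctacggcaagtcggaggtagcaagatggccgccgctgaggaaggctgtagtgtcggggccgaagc
ECI2 carries 6 GC boxes, HACL1 a single CCAAT box, PEX6 a single ETS core, and PEX19 a GC box with a CCAAT box.

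Windows were given for 25 of the 31 named genes, 33 windows in all. DECR2, EHHADH, CRAT, ACAA1, PEX14 and PEX2 had none. The GC box was found in 72.7% of them and in 45.0% of all 35116 RefSeq windows of that length, and the ETS core in 24.2% against 10.3%. The CCAAT box was in 30.3% against 34.6%, and the E-box CACGTG in 6.06% against 7.26%. The TATA box TATAAA was in 0 member windows and 11.5% of all windows. The direct repeat bound by PPAR and RXR receptors, searched as 2 copies of AGGTCA with 1 free base between them, was in 0 member windows. It was in 8 of all 35116 windows (0.0228%). So rare an exact form cannot show, in 33 windows, whether members carry or lack such sites. Both strands were searched for each motif, and members' windows had a median GC content of 64.3% against 58.7% of all windows. The ETS core lay in windows of ABCD4, GNPAT, LONP2, PEX11A, PEX16, PEX26, PEX5 and PEX6. Of these, PEX5, PEX6 and PEX16 were called lower and the other 5 were not called, beside 51.7% of measured members and 16.5% of all genes called lower. A link between motifs and calls was not tested.

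Both cargo receptors and the docking protein fell with calactin on the deposited scale. Poly-A spike scaling put PEX5 at 0.11, PEX7 at -0.07 and PEX14 at 0.19, none of them called. The calls of PEX5, PEX7 and PEX14 also ended under quantile normalization (-0.23, -0.41 and -0.19) and hybridisation spike scaling (-0.32, -0.51 and -0.25). Median centring ended that of PEX14 too (-0.29). PEX5, the receptor for the C-terminal targeting signal carried by most matrix enzymes, gave intensities of 292, 315 and 308 with calactin and 412, 416 and 414 in untreated cells. The untreated arrays lay close together and every calactin array was below them. The difference was -0.42 ± 0.10 (adjusted p = 0.0141). PEX7, the receptor for the N-terminal signal of enzymes such as PHYH and AGPS, gave 221, 267 and 211 with calactin and 324, 409 and 354 in untreated cells. Again no calactin array reached the lowest untreated array, and the difference was -0.60 ± 0.14 (adjusted p = 0.0128). PEX14, the membrane protein that receives loaded receptors, gave 464, 490.4 and 537 with calactin and 648, 607 and 647 in untreated cells. Its groups did not overlap either, with a difference of -0.34 ± 0.10 (adjusted p = 0.0335). PEX5 was not called when calactin replicate 1 was left out (-0.39) or with the mean of its probe sets (-0.26), and PEX7 not when calactin replicate 1 (-0.57) or calactin replicate 3 (-0.54) was. PEX14 missed the threshold when calactin replicate 1 (-0.30), calactin replicate 2 (-0.34), untreated replicate 1 (-0.33) or untreated replicate 3 (-0.33) was left out, and with an untrended variance.

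The RING ubiquitin ligases, which mark PEX5 for recycling, were both lower on the deposited scale. Poly-A spike scaling put PEX2 at -0.03 and PEX10 at -0.16, neither of them called. Hybridisation spike scaling also ended the calls of PEX2 (-0.46) and PEX10 (-0.59), and quantile normalization that of PEX10 (-0.50). PEX2 gave 543, 527 and 519 with calactin and 782, 763 and 823 in untreated cells. Each group was tight, and the calactin arrays lay at about the same level below the untreated ones, a difference of -0.56 ± 0.09 (adjusted p = 0.00177). It was not called with the mean of its probe sets (-0.35). That mean holds a dim probe set, at 13.1 to 35.8 with calactin and 7.22 to 23.2 untreated. PEX10 gave 139.8, 184 and 177 with calactin and 229, 342 and 274 in untreated cells. The untreated arrays spread widely, the lowest calactin array and the lowest untreated array were both replicate 1, and the groups did not overlap. PEX10 differed by -0.69 ± 0.17 (adjusted p = 0.0196), but it missed the threshold when calactin replicate 1 (-0.58), calactin replicate 3 (-0.74), untreated replicate 2 (-0.55) or untreated replicate 3 (-0.70) was left out.

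Of the receptor export genes, PEX6 was called lower on the deposited scale and PEX26 was not called. PEX6, an ATPase that extracts the receptor from the membrane, gave 104, 97.9 and 104 with calactin and 181, 166 and 148 in untreated cells. All calactin arrays were lower, with a difference of -0.61 ± 0.14 (adjusted p = 0.0117), and its other probe set had a larger difference of -1.43. That second probe set has the higher linear mean, so the size of the PEX6 change depends on which probe set stands for the gene. The PEX6 call ended under quantile normalization (-0.43), hybridisation spike scaling (-0.52) and poly-A spike scaling (-0.08). PEX26, the membrane anchor of PEX6, gave 196, 232 and 231 with calactin and 297, 193 and 356 in untreated cells. Untreated replicate 2 was the lowest of the 6 arrays and the other untreated arrays were the highest. PEX26 was not called (-0.30 ± 0.20, adjusted p = 0.386), and without untreated replicate 2 the difference was -0.54 and passed the threshold.

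Of the genes for membrane protein insertion, PEX3 and PEX16 fell on the deposited scale (PEX16 turned to 0.10 under poly-A spike scaling) and PEX19 lay the other way. PEX3, the membrane dock for PEX19, gave 451, 484 and 519 with calactin and 773, 745 and 883 in untreated cells. The calactin arrays were well below the untreated arrays, with a difference of -0.70 ± 0.10 (adjusted p = 0.00149). Its call was lost under hybridisation spike scaling (-0.61) and poly-A spike scaling (-0.17). It was also lost when a probe set free of shared sequence was preferred (-0.59). That probe set was dim, at 3.91 to 26.4 with calactin and 17.8 to 62.1 untreated. PEX16, which helps bring PEX3 to the membrane, gave 601, 539.6 and 519 with calactin and 830.4, 703 and 734 in untreated cells. The groups were separate and differed by -0.44 ± 0.10 (adjusted p = 0.016). PEX16 was not called when calactin replicate 2 (-0.42), calactin replicate 3 (-0.39) or untreated replicate 1 (-0.37) was left out. The mean of probe sets also ended its call (-0.34), as did quantile normalization (-0.29) and hybridisation spike scaling (-0.34). A dim probe set in that mean gave 7.51 to 43.1 with calactin and 13.2 to 17.0 untreated.

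PEX19, the cytosolic chaperone that carries membrane proteins to PEX3, gave 905, 838 and 1031 with calactin and 625, 763 and 759.6 in untreated cells. Every calactin array was above every untreated array, the reverse of its partners, and untreated replicate 1 was the lowest of all. The difference of 0.36 ± 0.12 missed the threshold (adjusted p = 0.058). With the replicate number as a block the same difference passed it (adjusted p = 0.0217, in a range of 2.57e-08 to 0.246 over the alternatives). PEX11A, which elongates peroxisomes before they divide, was dim, at 27.9 to 34.2 with calactin and 24.1 to 34.4 untreated, and its groups overlapped (0.08 ± 0.16, adjusted p = 0.827).

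Of the ABC transporters in the list, ABCD3, which takes branched and dicarboxylic fatty acids into the peroxisome, was lower. It gave 513, 556 and 536 with calactin and 766, 828 and 889.6 in untreated cells. The groups did not overlap and differed by -0.61 ± 0.09 (adjusted p = 0.00181). The call ended under hybridisation spike scaling (-0.52) and under poly-A spike scaling (-0.08). ABCD4, which despite its family name serves the lysosomal export of cobalamin, gave 154, 141 and 162 with calactin and 168, 177 and 172 in untreated cells. Its calactin arrays were all slightly below the untreated ones, without a call (-0.17 ± 0.12, adjusted p = 0.444).

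Of 8 measured beta-oxidation genes, 3 were called lower (37.5%, beside 16.5% of all genes and 29.3% of those above the median signal) and 0 higher, with a median of -0.21. ECI2, an isomerase that moves double bonds of unsaturated fatty acids, gave 1328, 1373 and 1554 with calactin and 2752, 3176 and 2937 in untreated cells. The calactin mean was 48% of the untreated mean, with no overlap. Its difference of -1.05 ± 0.09 had the smallest adjusted p of the members (1.27e-04). HSD17B4, the D-bifunctional protein that hydrates and dehydrogenates the acyl chain, gave 656, 853 and 961 with calactin and 1174, 1389 and 1281 in untreated cells. Calactin replicate 1 was lowest and all calactin arrays were below the untreated ones, with a difference of -0.64 ± 0.14 (adjusted p = 0.0108). The call was lost when untreated replicate 3 was left out (-0.64), under hybridisation spike scaling (-0.54) and under poly-A spike scaling (-0.11). It was also lost with the mean of probe sets (-0.29). That mean holds a dim probe set, at 3.23 to 9.66 with calactin and 3.79 to 7.55 untreated. EHHADH, the L-bifunctional enzyme of dicarboxylic acids, gave 11.5, 11.4 and 16.6 with calactin and 37.6, 49.2 and 56.8 in untreated cells. These signals lie below the median gene signal of 71.4, and the groups did not overlap. The difference of -1.12 ± 0.18 (adjusted p = 0.00214) had the largest size of the members on this scale.

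The other 5 beta-oxidation genes were not called on the deposited scale. ACAA1, the thiolase that splits off acetyl-CoA, gave 613, 578 and 686 with calactin and 738, 773 and 798 in untreated cells. Its calactin arrays were all lower, yet the difference of -0.29 ± 0.10 missed the threshold (adjusted p = 0.0624) and passed it with the replicate block. DECR2, a reductase for unsaturated chains, differed by -0.13 ± 0.10, with all calactin arrays (421, 432 and 429) just below the untreated ones (452, 522 and 439), and poly-A scaling turned it to 0.40. CRAT, the carnitine acetyltransferase that prepares acetyl groups for export, overlapped between the groups at 224 to 257 with calactin and 241 to 264 untreated (-0.07 ± 0.11; 0.46 after poly-A scaling). ACOX3, an oxidase of branched chains, and AMACR, the racemase that makes branched acids fit for oxidation, were dim. ACOX3 had calactin arrays of 70.1, 65.2 and 59.5 above untreated arrays of 44.2, 59.1 and 50.9 (0.27 ± 0.16, adjusted p = 0.318). AMACR overlapped widely, at 8.70 to 41.8 with calactin and 9.18 to 27.4 untreated (0.02 ± 0.34).

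Both genes of alpha-oxidation, which removes a single carbon from branched acids such as phytanic acid, were lower on the deposited scale (PHYH turned to 0.013 under poly-A spike scaling). PHYH, the phytanoyl-CoA hydroxylase mutated in Refsum disease, gave 125, 114 and 122 with calactin and 149, 202 and 191 in untreated cells. The calactin arrays lay within a narrow range below all untreated arrays, and the difference was -0.52 ± 0.15 (adjusted p = 0.037). It missed the threshold when calactin replicate 1 (-0.54), calactin replicate 2 (-0.49), calactin replicate 3 (-0.53), untreated replicate 2 (-0.44) or untreated replicate 3 (-0.48) was left out. Quantile normalization (-0.32), median centring (-0.46) and hybridisation spike scaling (-0.42) also ended its call. HACL1, the lyase that cleaves the hydroxylated chain, gave 349, 409.9 and 448 with calactin and 694, 778 and 798 in untreated cells. The calactin mean was 53.2% of the untreated mean, no arrays overlapped, and the difference was -0.89 ± 0.12 (adjusted p = 8.76e-04).

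Of the 3 ether lipid genes, AGPS was called. AGPS, which exchanges an acyl for an alkyl chain and so forms the ether bond, gave 743, 837 and 737 with calactin and 1074, 1032 and 1061 in untreated cells. Every calactin array was below every untreated array, with a difference of -0.45 ± 0.09 (adjusted p = 0.00583), but the sign turned under poly-A scaling (0.088). Hybridisation spike scaling ended its call (-0.35). GNPAT, the acyltransferase of the step before AGPS, gave 2182, 2336 and 2434 with calactin and 2381, 2804 and 2899 in untreated cells. Its groups overlapped because untreated replicate 1 lay below calactin replicate 3, and the difference of -0.21 ± 0.09 was not called (adjusted p = 0.149). It was called with the replicate block and without untreated replicate 1 (-0.30). FAR1, the reductase that supplies the fatty alcohol, gave 793, 741 and 849.5 with calactin and 856, 993 and 996 in untreated cells. All calactin arrays were lower by a small margin (-0.25 ± 0.10, adjusted p = 0.117).

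The membrane proteins PXMP2, a pore for small solutes, and PXMP4 were close to no difference, at -0.04 ± 0.11 and 0.05 ± 0.11. Their arrays overlapped, at 753 to 894 with calactin and 794 to 972 untreated for PXMP2 and 315 to 397 with calactin and 342 to 347 untreated for PXMP4. LONP2, the protease of the peroxisomal matrix, also overlapped, at 422 to 508 with calactin and 446 to 525 untreated (-0.06 ± 0.11). Poly-A scaling moved PXMP2 to 0.49, PXMP4 to 0.58 and LONP2 to 0.47.

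Probe sets that the rule did not choose gave a measure of the same genes from other probes on the same arrays. There were 34 for 22 members, and in a fit over all 54613 probe sets 12 were called lower and 0 higher, where 10.3% and 3.68% of all probe sets were. All 12 were among the 19 further probe sets above the median gene signal (63.2%). The share of all probe sets above that signal was not computed, so the 10.3% is no background for these 19. By gene, 29.3% of those above the median signal were called lower, against 16.5% of all genes. For the members called lower, 10 of 17 further probe sets were called lower and their median was -0.59. AGPS was lower on each of its 4 probe sets, with further values of -0.88, -0.74 and -0.52. PEX16 (-0.88), PEX14 (-0.48), PEX3 (-0.76), PEX7 (-0.73), PEX10 (-0.84), PEX2 (-0.67) and PEX6 (-1.43) each had a further probe set called lower. The further probe sets of PEX5 (-0.10), ABCD3 (-0.28) and HSD17B4 (0.06) were not called. Neither were second further probe sets of PEX2 (0.18), PEX3 (-0.59), PEX14 (-0.14) and PEX16 (0.31). Among these uncalled probe sets, those of HSD17B4, PEX2, PEX3 and PEX16 lay below the median gene signal.

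For members that were not called, 2 of 17 further probe sets were called lower, a FAR1 probe set at -1.11 and a LONP2 probe set at -0.55. The chosen probe sets of these genes differed by -0.25 and -0.06, so probe sets of FAR1 and LONP2 disagree. With the mean of all probe sets of a gene, both were called lower (FAR1 -0.56, LONP2 -0.41). The further probe set of PEX19 lay at 0.15 and was not called. No member had probe sets called in opposite directions.

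**Figure D2:**
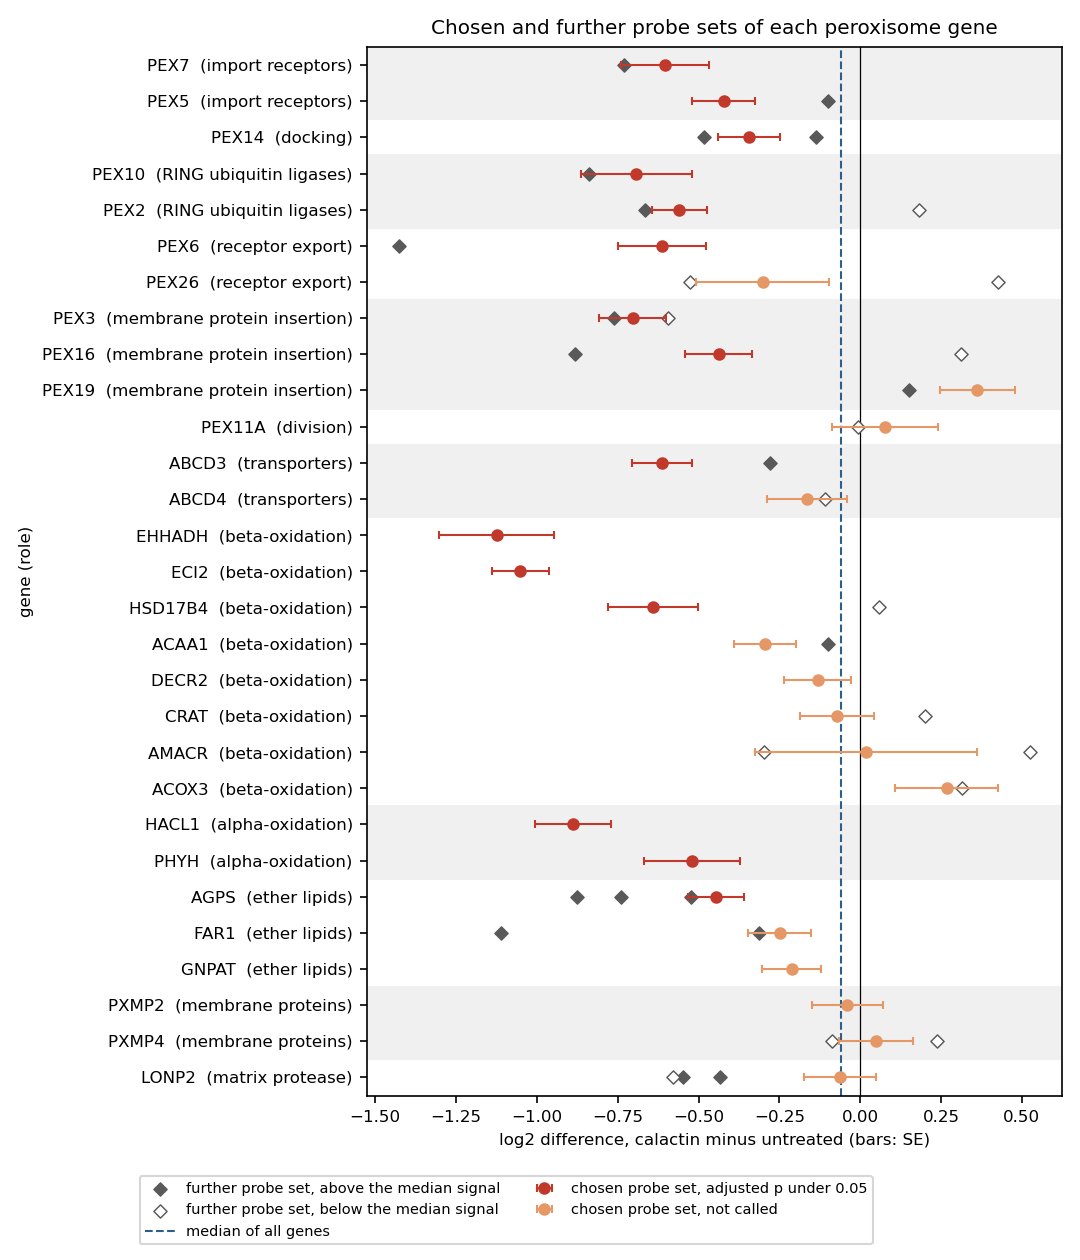
Circles give the log2 difference (calactin minus untreated, deposited scale) of the chosen probe set of each peroxisome gene with its standard error, dark red where the adjusted p was under 0.05. Diamonds give further probe sets of the same gene, filled where above the median gene signal, and 12 of these 34 were called lower in the fit over all probe sets; scaling to poly-A spikes raises all genes by 0.53.

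Other genes of the organelle were taken from a list of 62, of which 53 were measured. Of these, 13 were called lower (24.5%) and 4 higher (7.55%), with a median of -0.12. All genes had 16.5% and 4.93%, and genes above the median signal, where 36 of the 53 lay, had 29.3% and 9.1%, so these shares were near the background. The 8 with the smallest p are named. The CoA and nucleotide hydrolases NUDT7 and NUDT12 fell by 1.91 ± 0.15 and 1.43 ± 0.12. NUDT7 gave 49.8, 59.2 and 44.9 with calactin and 217, 258 and 236 in untreated cells. No calactin array came near an untreated one. ACSL4 and ACSL1, which attach CoA to long fatty acids, fell by 1.71 ± 0.15 and 0.90 ± 0.16. FAR2, the relative of FAR1, fell by 1.09 ± 0.18, and DNM1L, the dynamin that divides peroxisomes and mitochondria, by 0.88 ± 0.12. VAPB, which tethers peroxisomes to the endoplasmic reticulum, was higher by 0.74 ± 0.09. TRIM37, a ubiquitin ligase of PEX5, was higher by 0.61 ± 0.11, but the mean of its probe sets ended the call (0.05). Its sign turned with probe sets free of shared sequence (-0.50, not called). That choice also ended the calls of ACSL4 (-0.37) and VAPB (0.43). The ACSL4 probe set it used was dim, at 4.17 to 18.7 with calactin and 14.1 to 24.1 untreated. CAT, the catalase that removes hydrogen peroxide and the best known peroxisomal marker enzyme, gave 3489.9, 4204 and 3308 with calactin and 4190.2, 5410.3 and 4638 in untreated cells. Its difference of -0.37 ± 0.12 missed the threshold (adjusted p = 0.053).

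Of 9 regulators linked to peroxisome number or lipid oxidation genes, 1 was called lower and 3 higher, beside 16.5% lower and 4.93% higher of all genes. PPARGC1B, a coactivator of nuclear receptors, gave 84.8, 81.6 and 82.8 with calactin and 337, 285 and 366 in untreated cells. Its calactin arrays were far below the untreated arrays, with a difference of -1.79 ± 0.14 (adjusted p = 9.91e-05). The nuclear receptor PPARD was higher by 0.96 ± 0.20 and its partners RXRA and RXRB by 0.90 ± 0.16 and 0.39 ± 0.10. The mean over probe sets ended the calls of RXRA (0.30) and RXRB (0.33), and RXRB was not called when calactin replicate 1 (0.36), calactin replicate 2 (0.40), calactin replicate 3 (0.42) or untreated replicate 3 (0.34) was left out. PPARA, the receptor named for peroxisome proliferators, was not called (0.09 ± 0.19), nor were PPARG (0.15 ± 0.24), PPARGC1A (0.36 ± 0.26), TFEB (0.26 ± 0.18) and TFE3 (0.14 ± 0.09). All 5 were called higher when poly-A spike scaling and the replicate block were applied together, where 47.5% of all genes were. TFE3 was also called higher under quantile normalization (0.27).

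**Figure D3:**
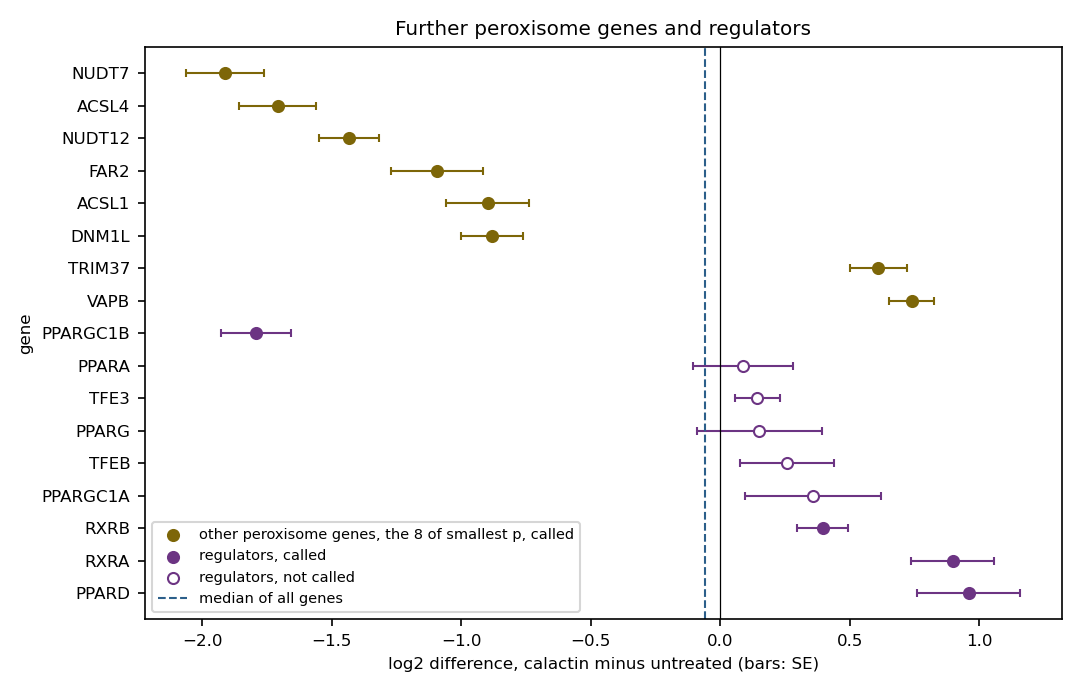
Points give the log2 difference (calactin minus untreated, deposited scale) with its standard error for the 8 further peroxisome genes of smallest p and for 9 regulators, filled where called. NUDT7 and PPARGC1B lie farthest left and PPARD farthest right. TRIM37 turns to -0.50, without a call, with probe sets free of shared sequence.

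The choice of scale moved the calls more than any choice of test. On the deposited values, median array intensities were 31.2 to 32.1 with calactin and 33.1 to 34.4 untreated. Quantile normalization left ABCD3, AGPS, ECI2, EHHADH, HACL1, HSD17B4, PEX2 and PEX3 called lower and brought PEX19 past the threshold as higher. Median centring kept 13 of the 15, losing PEX14 and PHYH, and also called PEX19 higher. Scaling to the hybridisation spikes, control transcripts added just before hybridisation, left ECI2, EHHADH and HACL1. Scaling to the poly-A spikes, transcripts added to the RNA before labelling, with the replicate number as a block, also left ECI2, EHHADH and HACL1 lower. It called 8 of the 29 members higher (ACOX3, CRAT, DECR2, LONP2, PEX11A, PEX19, PXMP2 and PXMP4), where 47.5% of all genes were called higher and 5.15% lower. That scaling raised the median of all genes by 0.53, to 0.47, and its spikes stood at 6.72 and 7.06 (mean log2) in both arrays of replicate 3 and at 9.83 to 10.9 in the other 4. Relative to the median of all genes, the members' median was -0.28 on the deposited scale and -0.21 under quantile normalization; the other scalings shift every gene alike and cannot change this difference. Within replicate pairs, the median of the members was -0.46, -0.37 and -0.41 for replicates 1, 2 and 3, and 26, 22 and 25 of the 29 were below 0. The median of all genes in these pairs was -0.06, -0.06 and -0.11. In the fit on the deposited scale, 11481 of all 19775 genes and 24 of the 29 members were below 0. With replicates 1 and 2 alone, ECI2, EHHADH, HACL1 and PEX3 were called lower.

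**Figure D4:**
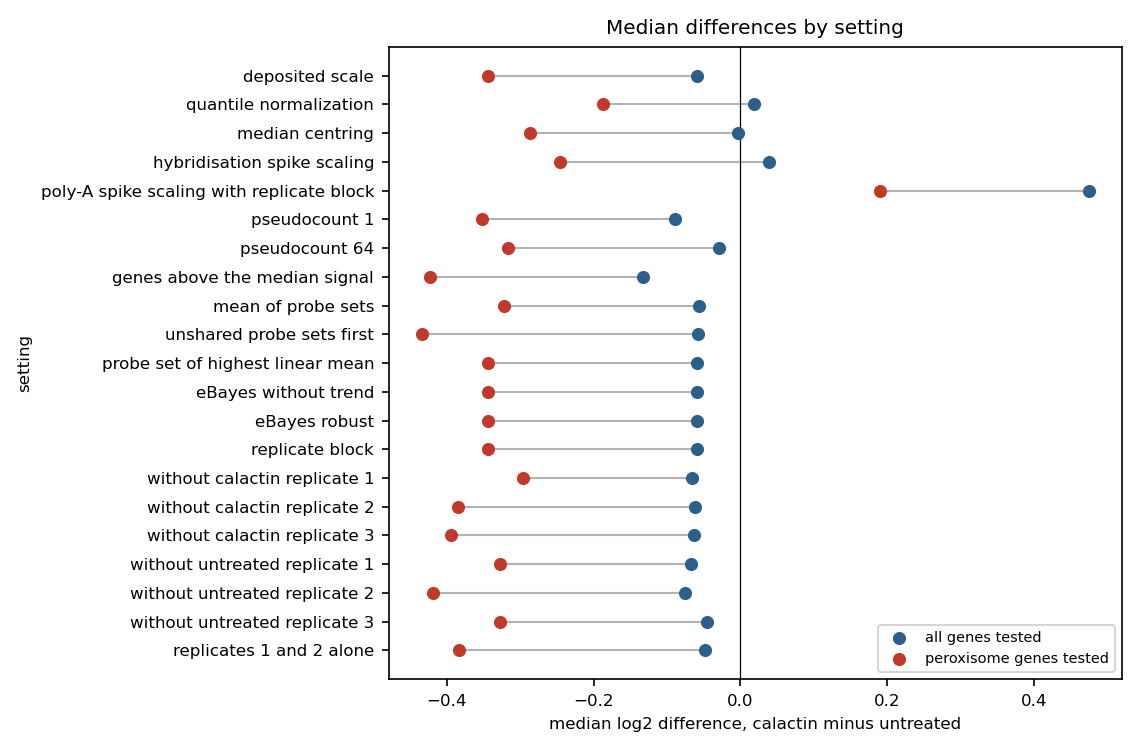
Red points give the median log2 difference (calactin minus untreated) of the peroxisome genes and blue points that of all genes tested, for the deposited scale and 20 alternative settings. The red point lies left of the blue one in every row, and both are above 0 only under poly-A spike scaling, where they are 0.19 and 0.47.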

How the data were processed

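RNA of 6 K562 cultures was hybridised to 1-colour Affymetrix arrays, and per the labels the values are 1 number per probe set and array, deposited by the authors as linear intensity. How they were summarised, background-corrected and scaled is not given in the sources used here, and the values show no quantile normalization. No further scaling was applied. The members and gene lists were chosen with earlier results of these data known. Of 54675 probe sets, 62 were controls and 41091 carried 1 symbol. The probe set with the highest mean log2(intensity + 16) stood for its gene. limma 3.58.1 (lmFit, eBayes with trend) in R 4.3.3 tested 3 against 3 arrays, with Benjamini-Hochberg adjustment over all 19775 genes and a threshold of 0.05. The script was tested on simulated data. Such folds understate the change of dim genes, and precision is limited by the number of arrays.

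All members were named, with at most 8 of the other called peroxisome genes, those of smallest p. Replicate numbers come from the sample titles. Same-numbered arrays deviated together over the 9887 brighter genes (correlations of 0.544, 0.409 and 0.345), so the numbers were taken to pair the samples; the tests and shares reported are without this block. The labels call the samples of a group biological replicates. Alternatives covered scaling, pseudocount, dim genes, probe set choice, variance model, the replicate block and each array left out. A probe set was taken as free of shared sequence when its name did not end in _s_at, _x_at or _a_at. Such probe sets were preferred even where they were dim. The use of replicates 1 and 2 alone and the choice of probe set by linear mean were added after seeing the data. Promoters come from RefSeq tables (GRCh38.p14). Figures were drawn with matplotlib 3.10.9.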

Additional observations from a re-analysis of the deposited data

How the results depend on the processing

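Across 20 alternatives, ECI2 and HACL1 kept their call as lower in each, and EHHADH in the 19 that tested it. Quantile normalization called 1661 genes higher, 8 members lower and 1 higher, with a member median of -0.19. Median centring called 1 member higher and had a median of -0.29. Hybridisation spike scaling called 1463 genes lower and 603 higher, 3 members lower, and 6 of the other peroxisome genes lower and 2 higher, with a member median of -0.25. Poly-A spike scaling with the replicate block called 1018 genes lower and 9390 higher, 3 members lower and 8 higher, and 6 of the others lower and 21 higher, with a median of 0.19. It put 14 members that were below 0 above it: PEX5 (0.11), PEX14 (0.19), PEX16 (0.10), DECR2 (0.40), CRAT (0.46), PHYH (0.013), AGPS (0.088), PXMP2 (0.49), LONP2 (0.47), PEX26 (0.23), ABCD4 (0.37), ACAA1 (0.24), GNPAT (0.32) and FAR1 (0.28). Lower genes were 77.0% of all calls on the deposited scale, 59.1% under quantile normalization and 9.78% under poly-A scaling. Only genes above the median signal gave 1 member called higher and a median of -0.42, the robust fit 1 higher, and the mean of probe sets 2 of the others higher and FAR1 and LONP2 lower. Probe sets free of shared sequence gave a median of -0.43, 1 of the others higher, and TRIM37 reversed at -0.50 without a call. The replicate block called 17 members lower and 1 higher, gaining ACAA1, GNPAT and PEX19, with 16 of the others lower and 6 higher (13 and 4 without it) and 3992 of all genes lower and 1402 higher (3264 and 975 without it).

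Leaving out each array in turn gave 2390 to 3030 genes lower and 644 to 1015 higher, 10 to 14 members lower and 0 higher, a member median of -0.42 to -0.30, and 10 to 15 of the others lower and 2 to 3 higher. Replicates 1 and 2 alone gave 1403 genes lower and 332 higher, 4 members lower, and 4 of the others lower and 2 higher. The causes of these shifts were not tested, beyond the fewer arrays or genes that some alternatives use. No detection calls were used, so signals of EHHADH, ACOX3, AMACR and PEX11A, all below the median gene signal, could not be set against background.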
